A study of Homo sapiens with 15 samples.

Results

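The 10 genes described here restrain or read out the extracellular signal-regulated kinase (ERK) pathway: the Sprouty genes SPRY1, SPRY2 and SPRY4, the Spred genes SPRED1 and SPRED2, the dual-specificity phosphatase genes DUSP4 and DUSP6, and the PEA3 subfamily of ETS transcription factors, ETV1, ETV4 and ETV5. They were taken by gene symbol from a table of 35805 genes measured by RNA-seq in 15 libraries. All 10 were listed once and passed the filter on low values, which 16787 genes passed.

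Growth factor receptors activate RAS, which sets off a cascade of the kinases RAF, MEK and ERK. Active ERK induces its own inhibitors: Sprouty and Spred proteins act upstream, at the level of the receptor, RAS and RAF, whereas DUSP6 in the cytoplasm and DUSP4 in the nucleus remove phosphate from ERK and related kinases. The PEA3 factors are transcription factors whose genes are switched on by ERK signalling, in part because ERK relieves repression by the protein Capicua (CIC), and whose proteins are turned over through the COP1 and DET1 ubiquitin ligase. The level of these transcripts is therefore widely used as a readout of ERK output, although transcript levels alone do not measure ERK activity.

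The cells were HEK-293T, a line derived from human embryonic kidney. Untransduced cells, labelled wild-type, were compared with cells transduced with Cas9 and 1 guide. The study ablated THAP1 in a cloned reporter line, in which GFP was knocked in to report transcription from the promoter of PSMB5 (a catalytic subunit of the proteasome) and which overexpressed exogenous PSMB5; whether untransduced and control-guide cells carried both is not given in the sources used here. The control guides were sg1-Control, which targets an intron of FOXP1, and sg2-Control (together sgControl), whereas sg1-THAP1 and sg2-THAP1 (together sgTHAP1) target THAP1, which encodes a zinc-finger transcription factor; the sgTHAP1 cells were populations, not clones, sorted for dim GFP. Each of the 5 groups had 3 libraries, which the study describes as biological replicates. Whether control-guide cells were sorted is not given either. Transduction, Cas9 and the guide, and for sgTHAP1 cells the guide and the sort, cannot be told apart as sources of a difference.

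The libraries held 30400150 to 56638448 reads, with a median of 35196090, and the totals of the kinds overlapped. Transcript of THAP1 itself was higher, not lower, in the libraries labelled sgTHAP1 (5.48 to 6.18 log2 RPM, reads per 1000000 reads of the library) than in untransduced (3.36 to 3.46) or sgControl libraries (3.25 to 3.57), and an RNA level does not measure the cut or the protein, so group names below follow the labels. PSMB5 was at 11.74 to 11.77 in untransduced, 11.88 to 11.95 in sgControl and 11.32 to 11.53 log2 RPM in sgTHAP1 libraries. All 8 genes of a HEK-293T marker list were expressed in every group, with summed levels of 1330 to 1370 RPM in untransduced, 1060 to 1190 RPM in sgControl and 1270 to 1450 RPM in sgTHAP1 libraries. Of 6 monocytic markers 2 passed the filter, with summed levels of 0.328 to 0.684 RPM in untransduced, 0.739 to 1.34 RPM in sgControl and 0.649 to 1.24 RPM in sgTHAP1 libraries, and of 6 carcinoma markers 2 passed, at 0.356 to 0.428, 0.335 to 1.54 and 0.422 to 2.62 RPM; their part in the results was not tested. In bulk RNA, fewer cells expressing a gene and less RNA per cell cannot be told apart.

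Across the study, 9 of the 10 genes rose from untransduced to sgControl cells and 8 of the 10 fell from sgControl to sgTHAP1 cells, of which DUSP6 and ETV1 did not pass in every alternative setting. Differences were tested with limma on the log2 values, with p-values adjusted over all 16787 genes (Benjamini-Hochberg), and a gene counted as called where the adjusted p was under 0.001 and the change over 2-fold, the thresholds of the study. The members, and the lists further below, were chosen with earlier results of these data known. The shares of all tested genes printed beside them are therefore a description only. Relative to untransduced cells, 9 members (all but SPRY1) were called higher in sgControl cells, against 2.29% of all tested genes. At an adjusted p under 0.05 the same 9 were higher, against 28.1% of all genes, and SPRY1 was lower, against 40.5%, a call lost in several settings. Relative to sgControl cells, SPRY4, SPRED2 and ETV5 were called lower in sgTHAP1 cells (background 1.83%), and all 3 are among the 9, so that the study's removal of genes called between control-guide and untransduced cells leaves 0 of them. At an adjusted p under 0.05, 8 members were lower (background 32.6%) and 0 higher (background 20.2%), with SPRY1 and ETV4 not passing in either direction. With sg2-Control as the only control guide, DUSP6 (adjusted p = 0.217) and ETV1 (adjusted p = 0.0981) did not pass, leaving 6. The median change of the 10 genes was 1.89 on the log2 scale from untransduced to sgControl cells, beside -0.12 over all tested genes, and -0.81 from sgControl to sgTHAP1 cells, beside -0.06. Both comparisons share the sgControl libraries, so they are not independent of each other. The scaling moved the balance over all genes: quantile normalization gave 841 genes called higher and 687 lower in sgControl relative to untransduced cells in place of 384 and 1470, 107 and 209 for sgTHAP1 relative to sgControl cells, not 58 and 308, and 1108 and 1043 for sgTHAP1 relative to untransduced cells, not 423 and 2253. It moved the median of all genes from -0.122 to -0.004, from -0.065 to 0.018 and from -0.196 to 0.013 on the log2 scale, and in these 3 comparisons SPRY1 was the one member whose direction it turned.

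Some calls of sgControl against untransduced cells sat near the thresholds, though all 9 genes kept an adjusted p under 0.05 in each alternative. SPRY2 was not called without any 1 sg1-Control library or without untransduced replicate 2 or 3 (log2 changes 0.92 to 0.99), nor with a pseudocount of 0.5 RPM (0.98) or sg2-Control alone (0.76), and DUSP4 was not called without any 1 untransduced library (adjusted p 0.00102 to 0.00162) or with sg1-Control (0.00135) or sg2-Control (0.00589) as the only control guide. DUSP6 was not called without untransduced replicate 3 (log2 change 1.29, adjusted p = 0.00753) or without sg1-Control replicate 1 or 2 or sg2-Control replicate 1 (adjusted p 0.00105 to 0.00118). It was not called either without the filter (0.00224), in voom (0.00222), with that pseudocount (log2 change 0.86) or with sg1-Control (0.00145) or sg2-Control alone (0.0111). ETV4 was not called with limma voom on recovered reads (adjusted p = 0.00666) or with sg2-Control as the only control guide (adjusted p = 0.00149).

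**Figure D1:**
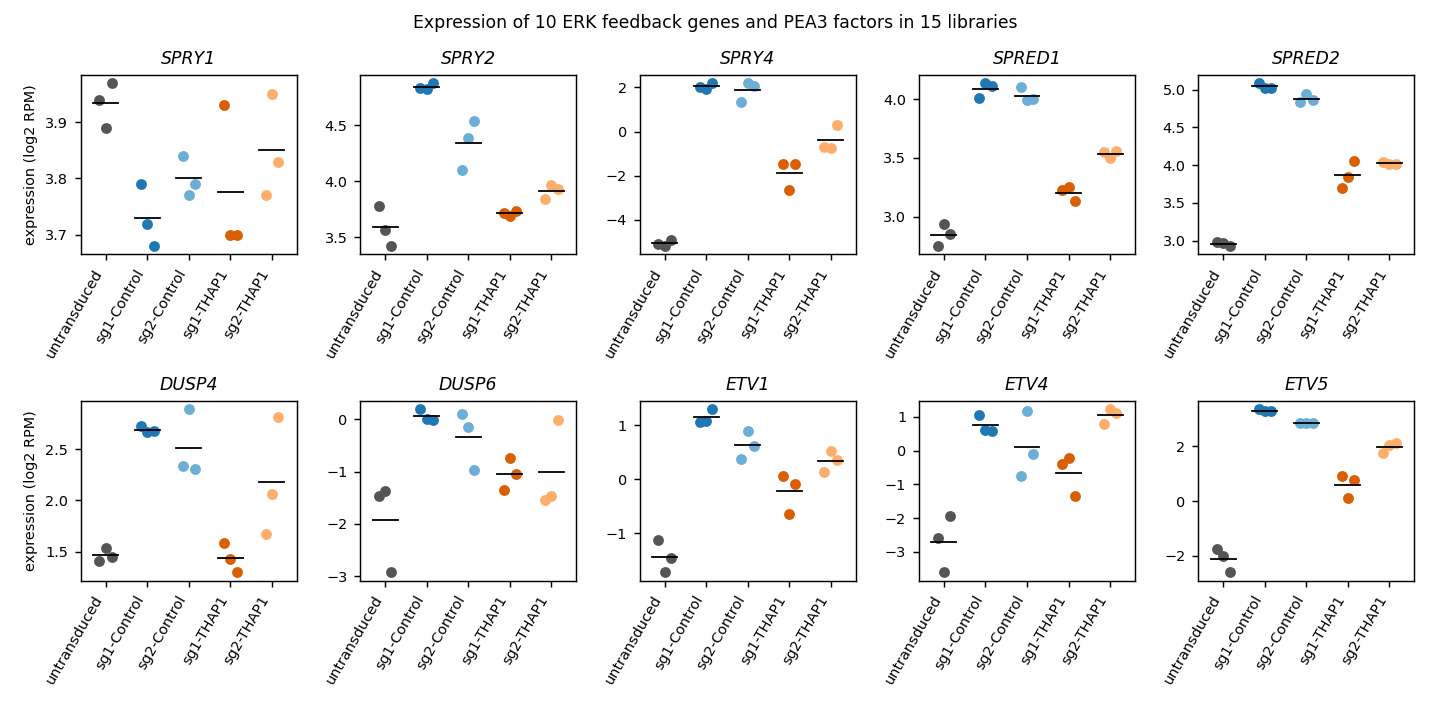
Expression (log2 RPM, vertical axis, with its own range in each panel) of each of the 10 genes in the 15 libraries, in 5 groups of 3; each point is 1 library and each bar the group mean. In every panel but that of SPRY1 the 6 sgControl libraries lie above the 3 untransduced libraries.

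The libraries did not overlap in many of these genes. Every sgControl library lay above every untransduced library in 9 members, which held for 27.3% of all tested genes, and every sgTHAP1 library lay below every sgControl library in 5 (SPRY2, SPRY4, SPRED1, SPRED2 and ETV5), which held for 19.9%. In SPRY4, SPRED1, SPRED2 and ETV5 all 6 sgTHAP1 libraries sat between the other kinds, above untransduced and below sgControl; 2.69% of tested genes showed this order. In a two-sided exact permutation test, 6 libraries against 3, sgControl and untransduced differed with p = 0.0238 in all 10 members, the smallest p that 84 arrangements allow; every sgControl library lay below every untransduced library in SPRY1, as in 39.8% of all tested genes. In the same exact permutation test, 6 libraries against 6, the 5 members without overlap between sgTHAP1 and sgControl reached p = 0.00216, the smallest p of 924 arrangements. These tests treat libraries that share a guide as independent, and their p-values are lower limits.

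Promoter windows of 300 bases (250 before and 50 after an annotated start) were taken from RefSeq on GRCh38.p14. They were matched by symbol for 7 of the 10 members (all but DUSP4, ETV4 and ETV5), with 16 windows in all. Which of these starts the cells used was not measured. The windows below are those of SPRY4, which differed most between the groups, of SPRY1, which differed least, and the only windows of the members with a match to a searched motif, those of ETV1 and SPRED2. Capitals mark the matches. The letters searched, on both strands, were CCGGAAGT for ETS factors (in 4.14% of 35116 windows), TGAATGAA (1.65%) and TGAATGGA (1.03%) for CIC, TGACGTCA for the cyclic AMP response element (1.85%), TGANTCA for AP-1 (7.71%), GCGTGGGCG for EGR factors (0.795%), the serum response element by its name (1.29%) and AAGGGCA for THAP1 (5.23%).
SPRY4 (chr5:142324198-142324497, minus strand): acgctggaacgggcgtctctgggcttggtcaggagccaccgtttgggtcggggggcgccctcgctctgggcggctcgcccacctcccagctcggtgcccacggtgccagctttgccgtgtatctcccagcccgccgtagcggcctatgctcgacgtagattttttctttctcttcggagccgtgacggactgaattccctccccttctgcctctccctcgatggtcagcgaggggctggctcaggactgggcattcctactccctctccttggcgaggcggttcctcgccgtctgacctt
SPRY1 (chr4:123396545-123396844, plus strand): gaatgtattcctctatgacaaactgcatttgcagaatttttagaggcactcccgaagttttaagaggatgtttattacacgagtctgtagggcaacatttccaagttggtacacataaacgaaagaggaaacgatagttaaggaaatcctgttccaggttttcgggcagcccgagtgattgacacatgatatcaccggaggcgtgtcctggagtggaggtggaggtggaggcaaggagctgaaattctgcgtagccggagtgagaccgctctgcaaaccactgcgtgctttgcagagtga
ETV1 (chr7:13991376-13991675, minus strand): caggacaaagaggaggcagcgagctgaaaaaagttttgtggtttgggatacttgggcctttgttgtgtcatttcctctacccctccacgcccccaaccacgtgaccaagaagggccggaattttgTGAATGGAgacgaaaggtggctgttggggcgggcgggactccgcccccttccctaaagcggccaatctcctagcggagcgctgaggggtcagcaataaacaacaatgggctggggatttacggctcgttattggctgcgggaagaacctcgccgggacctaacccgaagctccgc
SPRED2 (chr2:65366729-65367028, minus strand): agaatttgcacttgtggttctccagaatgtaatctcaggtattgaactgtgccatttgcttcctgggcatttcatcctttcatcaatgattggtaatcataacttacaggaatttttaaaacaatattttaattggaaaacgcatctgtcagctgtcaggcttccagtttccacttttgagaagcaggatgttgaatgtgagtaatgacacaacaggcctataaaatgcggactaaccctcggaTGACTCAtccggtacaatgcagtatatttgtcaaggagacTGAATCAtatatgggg
The start of the SPRY4 window lies 2208 bases, and that of the SPRED2 window 65859 bases, from the start of the gene in the deposited table, while those of SPRY1 and ETV1 coincide with it. The ETV1 window held the CIC letters TGAATGGA beginning 125 bases before the start. The SPRED2 window printed above held AP-1 letters beginning 6 bases before and 34 bases after its start. A further SPRED2 window, 38 bases from the start of the gene in the deposited table, held no match. SPRY1 had a further window, 1591 bases from the deposited start of its gene, and ETV1 had further windows, none of them printed. In the other 14 windows none of these letters were found, and GC content of the 16 windows ranged from 39.3% to 76.3%. The THAP1 letters searched are not the consensus that the study gives, which leaves several positions open to any base. That consensus was not searched, so the lack of a match does not show that a window lacks a THAP1 site.

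SPRY4, which encodes a Sprouty inhibitor acting between receptor and RAF, was almost silent in untransduced cells and changed more than any other member. Its locus is on the minus strand of chromosome 5 (142310427 to 142326455, GRCh38). Untransduced libraries held 0, 1 and 1 reads (-5.08, -5.19 and -4.93 log2 RPM, where 0 reads are listed as 0.9 of a read). The sg1-Control libraries stood at 2.0, 1.91 and 2.21 log2 RPM and the sg2-Control libraries at 1.34, 2.18 and 2.06, from 90 to 213 reads each. The sg1-THAP1 libraries stood at -1.48, -2.65 and -1.49 log2 RPM (11, 5 and 11 reads) and the sg2-THAP1 libraries at -0.68, -0.74 and 0.28 (20, 23 and 58 reads). The 3 kinds did not overlap, and every sg2-THAP1 library was above every sg1-THAP1 library. Pooled reads of a kind, divided by its pooled library totals, were 191-fold higher in sgControl than in untransduced cells (961 against 2 reads, 95% exact counting interval 52.7 to 1580). They were 29.5-fold higher in sgTHAP1 than in untransduced cells (128 against 2 reads, interval 8.01 to 247). Both intervals cover counting error only. From sgControl to sgTHAP1 cells SPRY4 fell by 3.08 on the log2 scale (SE 0.35, adjusted p = 2.8e-07), to 11.9% of the sgControl level.

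SPRY2, a further Sprouty gene (minus strand of chromosome 13, 80335976 to 80340951), passed the test against untransduced cells with sg2-THAP1 and did not pass it with sg1-THAP1, while the guides' own difference was 0.20 on the log2 scale (SE 0.08, adjusted p = 0.0501). Untransduced libraries stood at 3.78, 3.56 and 3.42 log2 RPM. The sg1-Control libraries were at 4.83, 4.82 and 4.88 and the sg2-Control libraries at 4.1, 4.39 and 4.54, while sgTHAP1 libraries ranged from 3.69 to 3.97. The sgControl libraries lay above all others, and sg1-THAP1 and untransduced libraries overlapped. SPRY2 rose 2.01-fold in sgControl cells (log2 change 1.0, SE 0.13, adjusted p = 1.2e-06) and fell by 0.78 on the log2 scale in sgTHAP1 relative to sgControl cells (SE 0.11, adjusted p = 4.1e-06). Between sgTHAP1 and untransduced cells the log2 difference was 0.22 (SE 0.13, adjusted p = 0.133), and 0.61 (adjusted p = 2.4e-04) under quantile normalization and 0.49 (adjusted p = 0.00139) under median centring. Taken guide by guide, SPRY2 differed from untransduced cells by 0.12 with sg1-THAP1 (SE 0.08, adjusted p = 0.166) and by 0.32 with sg2-THAP1 (SE 0.08, adjusted p = 5.4e-04), whose libraries all lay above the untransduced libraries. In the main limma fit SPRY2 was also the one member that passed the test between the control guides, lower with sg2-Control by 0.49 on the log2 scale.

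SPRY1 (plus strand of chromosome 4, 123396795 to 123403760) stayed within a range of 3.68 to 3.97 log2 RPM, 401 to 748 reads, over all 15 libraries. Untransduced libraries were at 3.94, 3.89 and 3.97, the 6 sgControl libraries ran from 3.68 to 3.84 and those of sgTHAP1 from 3.70 to 3.95. The untransduced libraries lay just above the sgControl libraries and overlapped the sgTHAP1 libraries. The difference of sgControl from untransduced was -0.17 on the log2 scale (SE 0.07, adjusted p = 0.0371; 0.0513 to 0.118 without any 1 untransduced library), a drop to 89% that became 0.04 (adjusted p = 0.59) under quantile normalization. From sgControl to sgTHAP1 cells it was 0.05 (SE 0.06, adjusted p = 0.499).

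Both Spred genes followed the same order of groups with little scatter. SPRED2, whose product binds neurofibromin and holds RAS in check (minus strand of chromosome 2, 65310851 to 65432637), was at 2.98, 2.97 and 2.93 log2 RPM in untransduced libraries. The sg1-Control libraries were at 5.09, 5.02 and 5.02 and the sg2-Control libraries at 4.83, 4.94 and 4.86. The sg1-THAP1 libraries were at 3.70, 3.84 and 4.05 and the sg2-THAP1 libraries at 4.04, 4.02 and 4.01. The kinds were thus well apart, with the sgTHAP1 libraries about midway. SPRED2 rose 3.99-fold in sgControl cells (log2 change 2.0, SE 0.08, adjusted p = 2.1e-14), and in sgTHAP1 cells it fell to 49.4% of the sgControl level (log2 change -1.02, SE 0.06, adjusted p = 9.7e-11). That value sits at the 2-fold threshold: the call was lost without sg1-Control replicate 1 (-0.99) or sg1-THAP1 replicate 1 (-0.97) or 2 (-1.0), and under several other settings, with adjusted p from 5.1e-14 to 3.2e-07.

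SPRED1, the related RAS inhibitor (plus strand of chromosome 15, 38252326 to 38357249), lay between 2.75 and 2.94 log2 RPM in untransduced cells, between 3.99 and 4.14 in sgControl cells, between 3.13 and 3.25 with sg1-THAP1 and between 3.50 and 3.56 with sg2-THAP1. None of these ranges overlapped. It rose 2.31-fold in sgControl cells (log2 change 1.21, SE 0.09, adjusted p = 4.6e-10) and fell to 62% of the sgControl level in sgTHAP1 cells (log2 change -0.69, SE 0.08, adjusted p = 2.0e-07). Relative to untransduced cells, SPRED1 was higher in sgTHAP1 cells by 0.52 on the log2 scale (SE 0.09, adjusted p = 4.3e-05).

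The phosphatase genes were more scattered. DUSP4, encoding the nuclear phosphatase (minus strand of chromosome 8, 29333064 to 29350668), was at 1.41, 1.54 and 1.45 log2 RPM in untransduced libraries. The sg1-Control libraries were at 2.72, 2.67 and 2.68, those of sg2-Control at 2.34, 2.89 and 2.31. With sg1-THAP1 it was at 1.59, 1.43 and 1.30, overlapping untransduced cells, and with sg2-THAP1 at 1.67, 2.06 and 2.81, the last within the sgControl range. It rose 2.2-fold in sgControl cells (log2 change 1.14, SE 0.23, adjusted p = 1.9e-04). In sgTHAP1 cells DUSP4 fell by 0.79 on the log2 scale relative to sgControl (SE 0.19, adjusted p = 0.00127). Taken guide by guide, sg1-THAP1 cells differed from untransduced cells by -0.03 (SE 0.17, adjusted p = 0.886) and sg2-THAP1 cells by 0.71 (SE 0.17, adjusted p = 3.4e-04).

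DUSP6, encoding the ERK-selective cytoplasmic phosphatase (minus strand of chromosome 12, 89347232 to 89353271), was low throughout, with 4 to 14 reads in each untransduced library, 18 to 58 with a control guide and 11 to 47 with a THAP1 guide. Untransduced libraries stood at -1.47, -1.38 and -2.93 log2 RPM, sgControl libraries between -0.97 and 0.20, and sgTHAP1 libraries between -1.54 and -0.02. The sgControl libraries were above the untransduced libraries and overlapped the sgTHAP1 libraries, of which sg2-THAP1 replicate 3 was highest. DUSP6 rose by 1.79 on the log2 scale in sgControl cells (SE 0.39, adjusted p = 4.0e-04) and fell by 0.89 in sgTHAP1 relative to sgControl cells (SE 0.32, adjusted p = 0.0235). That fall did not pass without the filter (adjusted p = 0.0907), under quantile normalization (0.0632), with sg2-Control (0.217) or sg2-THAP1 (0.054) as the only guide of its kind, or without sg1-Control replicate 1 (0.0532) or sg2-THAP1 replicate 1 (0.0523). The annotated exons of DUSP6 overlap those of ENSG00000274021 on the opposite strand.

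Of the PEA3 factors, ETV4 and ETV5 differed between the THAP1 guides and ETV1 did not pass that test (0.56, SE 0.27, adjusted p = 0.103). ETV5 (minus strand of chromosome 3, 186046308 to 186110318) was at -1.76, -2.02 and -2.61 log2 RPM in untransduced libraries, from 5 to 9 reads. The sg1-Control libraries were at 3.37, 3.28 and 3.29, those of sg2-Control at 2.86, 2.84 and 2.87, from 228 to 551 reads. With sg1-THAP1 it was at 0.92, 0.11 and 0.78 and with sg2-THAP1 at 1.76, 2.04 and 2.14. No 2 of the 5 groups overlapped. ETV5 rose 37.1-fold in sgControl cells (log2 change 5.21, SE 0.33, adjusted p = 3.0e-11) and fell to 28.9% of the sgControl level in sgTHAP1 cells (log2 change -1.79, SE 0.27, adjusted p = 1.4e-05). With sg2-Control as the only control guide, the fall was 1.56 on the log2 scale, with an adjusted p of 0.00297 that no longer met the threshold. Exons of ETV5 overlap those of DGKG on the same strand, and DGKG was at most at -1.14 log2 RPM in any library.

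ETV4 (minus strand of chromosome 17, 43527844 to 43579620) did not pass the test for sgTHAP1 against sgControl, and the THAP1 guides differed from each other. Untransduced libraries were at -2.60, -3.61 and -1.93 log2 RPM, from 3 to 8 reads, sg1-Control at 1.05, 0.62 and 0.58 and sg2-Control at -0.76, 1.17 and -0.09. The sg1-THAP1 libraries were at -0.41, -0.22 and -1.36 and the sg2-THAP1 libraries at 0.78, 1.23 and 1.11. All libraries with a guide were above the untransduced libraries, and the sg2-THAP1 libraries reached the top of the sgControl range. ETV4 rose 8.83-fold in sgControl cells (log2 change 3.14, SE 0.52, adjusted p = 2.0e-05), and the pooled difference between sgTHAP1 and sgControl was -0.24 (SE 0.42, adjusted p = 0.658), a direction that turned to 0.07 without sg1-THAP1 replicate 3. With sg1-THAP1 it was lower than with sg1-Control by 1.42 on the log2 scale (SE 0.39, adjusted p = 0.00198), and with sg2-THAP1 higher than with sg2-Control by 0.93 (SE 0.39, adjusted p = 0.0433). The crossed guide pairs did not pass. ETV4 differed by -0.77 for sg1-THAP1 relative to sg2-Control (SE 0.39, adjusted p = 0.0921). For sg2-THAP1 relative to sg1-Control the difference was 0.29 (SE 0.39, adjusted p = 0.562). Exons of ETV4 overlap those of DHX8 on the opposite strand, a gene at 6.19 to 6.63 log2 RPM that rose by 0.32 on the log2 scale in sgControl cells (SE 0.07, adjusted p = 6.5e-04); whether counting used strand is not given, and its part in the ETV4 values was not tested.

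ETV1 (minus strand of chromosome 7, 13891228 to 13991425) ranged from -1.73 to -1.12 log2 RPM in untransduced (11 to 14 reads), from 0.37 to 1.30 in sgControl (46 to 120 reads) and from -0.65 to 0.52 in sgTHAP1 libraries (20 to 61 reads). The untransduced libraries were apart from all others, and the sgTHAP1 range overlapped the lowest sgControl libraries. ETV1 rose 5.01-fold in sgControl cells (log2 change 2.33, SE 0.26, adjusted p = 1.0e-07). It fell to 56.2% of the sgControl level in sgTHAP1 cells (log2 change -0.83, SE 0.21, adjusted p = 0.00231). The log2 change was -1.37 for sg1-THAP1 relative to sg1-Control (SE 0.27, adjusted p = 4.0e-05) and -0.29 for sg2-THAP1 relative to sg2-Control (SE 0.27, adjusted p = 0.395). In the crossed guide pairs it was -0.85 for sg1-THAP1 relative to sg2-Control (SE 0.27, adjusted p = 0.00785). It was -0.81 for sg2-THAP1 relative to sg1-Control (SE 0.27, adjusted p = 0.0121). The control guides themselves differed by -0.52, sg2-Control relative to sg1-Control (SE 0.27, adjusted p = 0.354). With sg2-Control as the only control guide the pooled difference was -0.57 (adjusted p = 0.0981).

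Relative to untransduced cells, 4 members (SPRY4, ETV1, ETV4 and ETV5) were called higher in sgTHAP1 cells, against 2.52% of all tested genes. At an adjusted p under 0.05 there were 7 higher (background 26.9%) and 0 lower (background 45.5%), with SPRY1, SPRY2 and DUSP4 not passing. DUSP6 passed narrowly (log2 difference 0.90, adjusted p = 0.0424) and did not pass without the filter (adjusted p = 0.138), with a pseudocount of 0.5 RPM (0.0765), in voom (0.107), with any 1 guide of either kind alone (0.052 to 0.0698) or without untransduced replicate 3 (log2 difference 0.40, adjusted p = 0.368), whereas under quantile normalization SPRY1 (0.19, adjusted p = 0.0134), SPRY2 (0.61, adjusted p = 2.4e-04) and DUSP4 (1.07, adjusted p = 1.1e-04) passed as higher. The median difference of the 10 genes was 0.94 on the log2 scale, beside -0.20 over all tested genes. Log2 differences of the called genes were 3.94 for SPRY4 (SE 0.42, adjusted p = 5.4e-08), 3.42 for ETV5 (SE 0.33, adjusted p = 1.2e-08), 2.90 for ETV4 (SE 0.52, adjusted p = 4.2e-05) and 1.49 for ETV1 (SE 0.26, adjusted p = 2.9e-05). Levels in sgTHAP1 cells were thus above those of untransduced cells in these genes while SPRY4 and ETV5 were called lower than in sgControl cells. ETV1 was lower than in sgControl cells as well (log2 change -0.83, SE 0.21, adjusted p = 0.00231) without being called. The 4 calls against untransduced cells rest on few untransduced reads: with limma voom, which gives low counts less weight, the differences were 3.99, 3.42, 2.92 and 1.51 with adjusted p from 0.00134 to 0.00988, and none met the threshold.

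Expressed as the share of the log2 rise of sgControl over untransduced cells that was still present, sgTHAP1 cells kept 22.3% for SPRY2, 30.3% for DUSP4, 43% for SPRED1, 49% for SPRED2, 50.5% for DUSP6, 56.2% for SPRY4, 64.3% for ETV1, 65.6% for ETV5 and 92.3% for ETV4. The 3 PEA3 factors had the highest shares, and order among the other genes followed no family. With sg1-THAP1 alone the share ran from -2.21% for DUSP4 to 65.2% for ETV4, and with sg2-THAP1 alone from 32.2% for SPRY2 to 119% for ETV4. These shares are given as a description, with no test, and that of SPRY4 depends on the value listed for 0 reads.

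**Figure D2:**
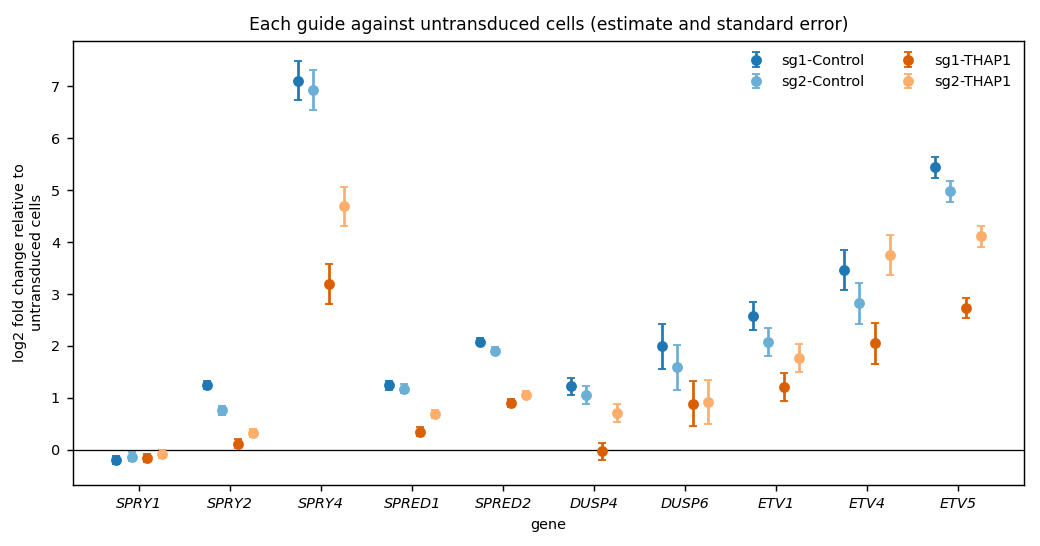
Log2 fold change of each guide relative to untransduced cells (vertical axis) for the 10 genes, from the fit with 1 coefficient per guide; points are estimates and bars standard errors. The sg2-THAP1 estimate lies above the sg1-THAP1 estimate in all 10 genes, most in ETV4, SPRY4 and ETV5.

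The THAP1 guides differed from each other in 5 members. SPRY4, SPRED1, DUSP4, ETV4 and ETV5 were higher with sg2-THAP1 than with sg1-THAP1 at an adjusted p under 0.05 (background 28.3% higher and 11.7% lower), and no member was lower. ETV4 (1.71, SE 0.39, adjusted p = 4.4e-04) and ETV5 (1.38, SE 0.20, adjusted p = 3.2e-07) were also past 2-fold and an adjusted p of 0.001, against 0.441% of all genes. SPRY4 differed by 1.5 on the log2 scale (SE 0.38, adjusted p = 0.00134), DUSP4 by 0.74 (SE 0.17, adjusted p = 6.2e-04) and SPRED1 by 0.33 (SE 0.08, adjusted p = 7.2e-04). Every sg2-THAP1 library was above every sg1-THAP1 library in 7 members, which held for 32.3% of all tested genes. The ETV4 call was lost without any 1 of sg1-THAP1 replicate 3 and sg2-THAP1 replicates 1, 2 and 3 (log2 differences 1.36 to 1.83, adjusted p 0.0011 to 0.00916). It was also lost without the filter (adjusted p = 0.012) and under quantile normalization (log2 difference 1.56, adjusted p = 0.00246).

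Between the control guides, SPRY2 alone passed an adjusted p of 0.05 in the main limma fit, at -0.49 on the log2 scale for sg2-Control relative to sg1-Control (SE 0.08, adjusted p = 9.5e-05), where 2.06% of all genes were lower and 1.82% higher. All sg2-Control libraries were below all sg1-Control libraries in SPRY2, SPRED2, ETV1 and ETV5, an order found in 10.6% of tested genes, with differences of -0.17 for SPRED2 (adjusted p = 0.201), -0.52 for ETV1 (adjusted p = 0.354) and -0.46 for ETV5 (adjusted p = 0.229). The median of the 10 genes was -0.29, beside 0.00 over all genes.

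Compared per length of annotated exon, the order of the members changed between the groups. In untransduced cells SPRY1 (1.95 log2 RPM per kb) and SPRY2 (1.90) were highest and had overlapping libraries, followed by SPRED2 (0.50), SPRED1 (-0.10) and DUSP4 (-1.40). DUSP6 (-3.87), ETV4 (-4.53), ETV5 (-4.66) and ETV1 (-4.70) came next, overlapping each other, and SPRY4 (-7.78) was lowest. In sgControl cells SPRY2 (2.91) and SPRED2 (2.50) were above SPRY1 (1.78), and ETV5 had moved to 0.56, above DUSP4 at -0.26. In sgTHAP1 cells SPRY2 (2.13), SPRY1 (1.83) and SPRED2 (1.48) were again highest and SPRY4 (-3.84) lowest.

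**Figure D3:**
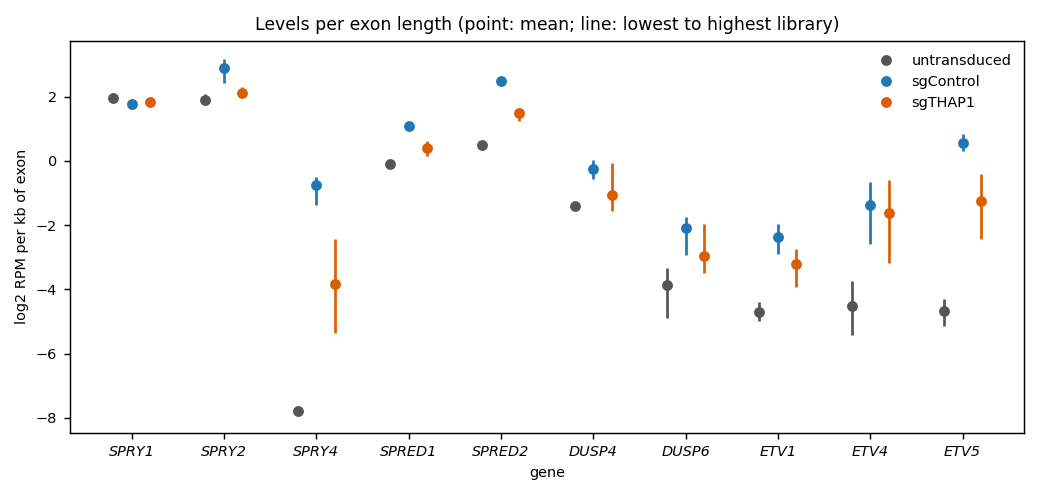
Level per exon length (log2 RPM per kb, vertical axis) of the 10 genes in untransduced (3 libraries), sgControl (6) and sgTHAP1 cells (6); points are means and lines run from the lowest to the highest library. The means of SPRY1 stay between 1.78 and 1.95, while SPRY4 spans -7.78 to -0.76.

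Other inhibitors of the pathway moved in both directions in sgControl cells and were mostly lower in sgTHAP1 than in sgControl cells. Of 15 tested genes of further feedback regulators and phosphatases, 7 were higher and 4 lower in sgControl than in untransduced cells at an adjusted p under 0.05, and 1 was higher and 11 lower in sgTHAP1 than in sgControl cells. For these and the following lists, the shares of all tested genes were 28.1% higher and 40.5% lower in the first comparison and 20.2% higher and 32.6% lower in the second. DUSP5, the nuclear phosphatase selective for ERK, rose by 3.57 on the log2 scale in sgControl cells and fell by 2.67 in sgTHAP1 relative to sgControl cells (adjusted p = 1.5e-10). ERRFI1, an inhibitor of the EGF receptor, rose by 1.45 and fell by 0.90 (adjusted p = 1.9e-09). DUSP7 rose by 0.84 in sgControl cells, and PEBP1, which encodes an inhibitor of RAF, exceeded its sgControl level by 0.27 in sgTHAP1 cells (adjusted p = 4.0e-08).

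Upstream of ERK, receptor transcripts were mostly lower in cells with any guide. Of 16 tested receptor genes, 12 were lower in sgControl than in untransduced cells and 1 was higher, and 11 were lower and 0 higher in sgTHAP1 than in sgControl cells, and EGFR fell by 1.0 and 0.91 on the log2 scale in these comparisons. KIT fell by 1.04 in sgControl cells, and IGF1R and INSR fell by 0.36 and 0.67 in sgTHAP1 relative to sgControl cells. Of 12 tested ligands, 4 were higher and 4 lower in sgControl cells, and 1 was higher and 3 lower in sgTHAP1 relative to sgControl cells. Of 21 cascade genes, 11 were higher and 5 lower in sgControl cells, and 2 were higher and 10 lower in sgTHAP1 relative to sgControl cells. FRS2, an adaptor of FGF receptors, rose by 1.02 and fell by 0.61. HRAS rose in both comparisons, by 0.98 and 0.23, and RPS6KA2 fell by 1.36 in sgControl cells. BRAF and RPS6KA3 did not pass in sgControl cells (adjusted p = 0.204 and 0.491) and fell by 0.51 and 0.44 in sgTHAP1 relative to sgControl cells.

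Downstream of ERK, all 13 immediate early genes, which growth factors induce within minutes, stood above untransduced cells in sgControl cells and below sgControl in sgTHAP1 cells at an adjusted p under 0.05, with median log2 changes of 3.40 and -2.0. Of 14 tested ERK output genes outside the members, 6 were higher and 4 lower in sgControl cells, with a median of 0.25, and 11 were lower and 0 higher in sgTHAP1 relative to sgControl cells, with a median of -0.82. CCND1, which encodes cyclin D1, rose by 0.83 and fell by 1.33 on the log2 scale, and the receptor gene EPHA2 rose by 1.33 and fell by 1.41. In contrast, EPHA4 fell in both comparisons, by 0.74 and 0.78, and so did SH2B3, by 0.92 and 0.55. Of 13 tested ETS factors outside the PEA3 subfamily, 9 were higher and 2 lower in sgControl cells and 0 were higher and 10 lower in sgTHAP1 relative to sgControl cells.

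Of the 7 genes that repress or turn over PEA3 factors, 4 were higher and 2 lower in sgControl cells and 2 were higher and 5 lower in sgTHAP1 relative to sgControl cells. CIC rose by 0.69 on the log2 scale and fell by 0.43. ATXN1 and ATXN1L encode partners of CIC, and ATXN1 fell in both comparisons, by 0.72 and 1.21, whereas ATXN1L rose by 0.88 and fell by 0.69. DET1 fell by 0.98 in sgControl cells and exceeded its sgControl level by 0.72 in sgTHAP1 cells.

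**Figure D4:**
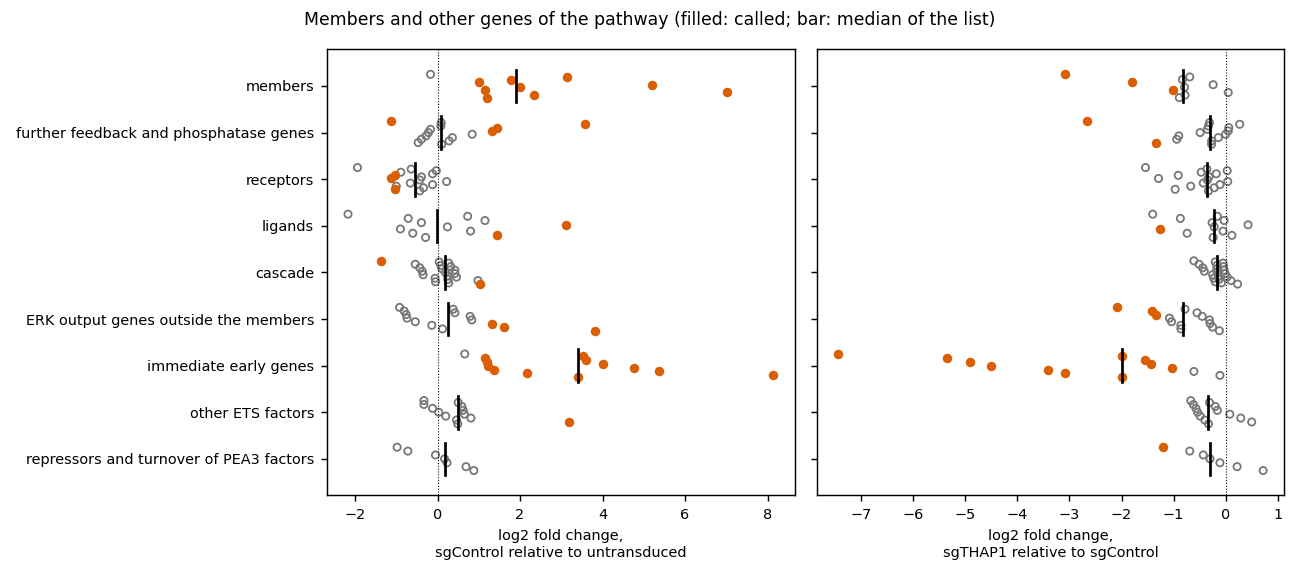
Log2 fold change (horizontal axes) of the 10 members and of each tested gene of 8 further lists, for sgControl relative to untransduced cells (left) and sgTHAP1 relative to sgControl cells (right); each point is a gene, filled where called, and bars are list medians. The members and the immediate early genes lie mostly to the right in the left panel and to the left in the right panel.

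Over the 15 libraries the members other than SPRY1 varied together: Pearson's r between 2 of them ran from 0.54 to 0.98 with a median of 0.83 (36 pairs), and r with SPRY1 from -0.65 to -0.33 (9 pairs). The libraries share 5 groups, so r reflects the group levels and is given as a description. Among 12416 or 12417 other genes with a mean of at least 1 log2 RPM, the pattern of ETV1 was most like that of ETV5 (r = 0.97). That of ETV5 was most like FOXC1 (0.995), that of SPRED2 most like HEY1 and POLR2A (both 0.99), that of SPRED1 most like PSME4 and IDE (both 0.99), and that of SPRY4 most like ZNF275 and CTGF (both 0.99). Lowest was the likeness of SPRY1 to its closest gene, BAIAP2-AS1 (0.83).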

How the data were processed

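RNA was measured in 15 HEK-293T libraries (5 groups of 3, grouped by the sample labels). Library preparation was strand-specific with polyA selection. The authors trimmed reads with Cutadapt, aligned them to GRCh38 with HISAT2 and quantified them in SeqMonk; whether strand was used in counting is not given in the sources used here, nor is the annotation release, so overlapping and antisense genes are uncertain. The deposited values are log2 RPM (per 1000000 reads), each library scaled to its own total, with 0 reads listed as 0.9 of a read. Whole reads were recovered from the steps between low values (99.63% to 99.88% of values within 0.01 of a read; 30400150 to 56638448 reads a library), and counting intervals cover counting error only. The deposited fold changes and group means were not used.

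Genes that reached a log2 value of -2 in 3 or more libraries (16787 of 35805) were fitted with limma (version 3.58.1, R 4.3.3; lmFit and eBayes with trend, Benjamini-Hochberg), with untransduced, sgControl and sgTHAP1 as coefficients, or 1 coefficient per guide for differences between guides. Calls needed an adjusted p under 0.001 and over 2-fold. The pooled fit counts libraries of the same guide as independent. Exact two-sided permutation tests used single values. Levels per length used the union of GENCODE 44 exons. Alternatives were the filter, a pseudocount of 0.5 RPM, quantile normalization, median centring, array weights, voom on recovered reads (called genes: 324 higher and 1835 lower in sgControl than in untransduced cells, 58 and 296 in sgTHAP1 than in sgControl cells), guides alone, other thresholds, a replicate block and leaving out each library. All 10 members were named. From each list, whole lists were counted and up to 3 genes per comparison with the smallest adjusted p could be named, and the 2 genes most like each member in Pearson's r. The members and lists were chosen with earlier results of these data known.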

Additional observations from a re-analysis of the deposited data

Results flagged for a closer look

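In 20 sets of 6 libraries (10 genes, sgControl and sgTHAP1), 2 libraries stood apart from the other 5 by Dixon's criterion, which chance meets in about 1 in 20 sets. They were SPRY4 in sg2-Control replicate 1, at 1.34 log2 RPM against 1.91 to 2.21 in the others, and DUSP6 in sg2-Control replicate 3, at -0.97 log2 RPM against -0.14 to 0.20.

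Guides of the same kind differed, by the test of the difference in the limma fit with 1 coefficient per guide, in 6 cases. Between control guides SPRY2 differed by -0.49 on the log2 scale (sg2-Control relative to sg1-Control). Relative to sg1-THAP1, sg2-THAP1 was higher by 1.5 for SPRY4, 0.33 for SPRED1, 0.74 for DUSP4, 1.71 for ETV4 and 1.38 for ETV5. The cause of these differences was not tested.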

How the results depend on the processing

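Of 1400 fold changes of members under the alternatives, 1317 kept their direction and side of the threshold, 45 dropped below it, 23 passed it and 15 changed sign, 3 of them past an adjusted p of 0.05 before or after: SPRY1 at 0.04 under quantile normalization for sgControl relative to untransduced, and at 0.19 under quantile normalization and 0.15 under median centring for sgTHAP1 relative to untransduced. Among differences that passed in neither setting, ETV4 in sgTHAP1 relative to sgControl became 0.12 with array weights, 0.08 with sg2-Control alone, 0.61 with sg2-THAP1 alone and -0.48 to 0.07 when 1 library was left out, and DUSP4 in sgTHAP1 relative to untransduced -0.03 with sg1-THAP1 alone. Between THAP1 guides, SPRY1 became -0.02 under both scalings and DUSP6 -0.08 under quantile normalization, -0.07 under median centring and -0.46 to 0.30 when 1 library was left out; between control guides SPRY4 ran from -0.34 to 0.08 when 1 library was left out. The number of members called in sgControl relative to untransduced cells (9) became 5 with sg2-Control as the only control guide, and 6 to 9 when 1 library was left out. In sgTHAP1 relative to sgControl cells (3) it became 1 with sg2-Control alone, 5 with sg1-THAP1 alone, 5 with no fold threshold, 0 after removal of genes called between sgControl and untransduced cells, as the study did, and 2 to 3 when 1 library was left out. In sgTHAP1 relative to untransduced cells (4) it became 2 with a pseudocount of 0.5 RPM, where SPRY4 was at 0.92 and ETV1 at 0.83, 8 with quantile normalization, 0 with voom on recovered reads, and 4 to 5 when 1 library was left out. Between the THAP1 guides (2) it became 1 without the filter, 1 with quantile normalization, 4 with no fold threshold, and 1 to 3 when 1 library was left out. Between the control guides (0 in limma and in voom, 3 at an unadjusted p under 0.05) it became 1 with no fold threshold. At an adjusted p under 0.05, SPRY2, SPRED2 and ETV5 passed between the control guides in voom. The share of all genes at that unadjusted p, or with no fold threshold, is not given here.

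The replicate numbers did not pair the libraries: the correlation of deviations between same-numbered libraries ran from -0.131 to 0.044 over 30 pairs. With the number as a replicate block, 9, 3, 4, 0 and 2 members were called in these 5 comparisons, the counts of the fit without the block; at an adjusted p under 0.05, DUSP6 in sgTHAP1 relative to untransduced cells (0.0549) no longer passed with the block, which leaves 6 members in place of 7. Where a comparison had under 10 reads in every untransduced library (SPRY4, ETV4 and ETV5) or in untransduced replicate 3 (DUSP6, 4 reads), depth limits the size of the fold change.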
